A study of Homo sapiens with 6 samples.

Results

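Histone lysine methyltransferases and demethylases, the enzymes that place and remove methyl groups on lysines of the histone tails and core, were examined in HEY, a human ovarian cancer cell line in long use. Members were the gene names of the deposited count table that follow the family naming patterns of the KMT2, KMT5, KDM, SETD, SETDB, SMYD, NSD, EZH, EHMT, SUV39H, SETMAR and DOT1L genes, each name once and without chromosome Y. The pattern matched 53 names, and 52 of the 60835 distinct names in the table remained, 35 methyltransferases and 17 demethylases. RNA was sequenced from 3 libraries of cells with a CCNL2-targeting siRNA (siCCNL2) and 3 libraries with the control siRNA (siNC), all of 1 cell line, grown in the same medium. The treatment text in the labels is the same for every library and names the CCNL2 siRNA and 48 h for the siNC libraries too. Groups therefore rest on the genotype label, and the same time is taken for siNC. Nothing in the labels tells if replicates were separate cultures, and all p-values therefore reflect library-to-library spread alone, which may be technical.

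A methyl mark acts according to the lysine that carries it. Methylation of H3K4 marks promoters and enhancers, H3K36 and H3K79 methylation lie over transcribed genes, H3K9 and H3K27 methylation are tied to silent chromatin, and H4K20 methylation to chromosome compaction and replication. Nearly all the writers use a SET domain and S-adenosylmethionine, with DOT1L as the exception that has no SET domain. The erasers are either flavin-dependent amine oxidases (KDM1A and KDM1B) or JmjC-domain dioxygenases that need iron, oxygen and 2-oxoglutarate. Several members also act on proteins other than histones. What follows concerns RNA of these genes, not the proteins or the marks.

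Library totals, each gene name counted once, ran from 13596286 to 18095529 in siCCNL2 libraries and from 15771604 to 16934044 in siNC libraries. The targeted gene CCNL2, which encodes cyclin L2, averaged 190.0 ± 11.2 CPM (counts relative to library size, with TMM factors) in siCCNL2 and 258.1 ± 10.8 CPM in siNC (SD, n = 3 each), a log2 fold change of -0.44. Levels of marker genes are given on the authors' TPM-like score, a value per gene length and library size. The sum of 8 ovarian carcinoma and epithelial markers was 2254.8 to 2347.7 in siCCNL2 and 3026.3 to 3072.6 in siNC. Of the 7 tested, 5 were called lower by edgeR, KRT7 (log2 fold change -0.59), WT1 (-0.46), KRT8 (-0.24), KRT18 (-0.22) and PAX8 (-0.17, at 85.5 in siCCNL2 and 97.2 in siNC). EPCAM (0.58) and MSLN (-0.27) were not called, and MUC16 had 0 counts in 4 of 6 libraries. The sum of 3 mesenchymal markers, mostly VIM, was 1825.4 to 1954.0 in siCCNL2 and 1846.7 to 1893.3 in siNC. CDH2 was called higher (0.21), and VIM (0.02) and ZEB1 (0.02) were not called. The summed score of 4 leukocyte markers stayed between 0.0308 and 0.326 in siCCNL2 and between 0.0531 and 0.101 in siNC, with CD68 at 0 in all 6 libraries. The sum of 3 endothelial markers was 33.2 to 40.2 in siCCNL2 and 84.7 to 89.0 in siNC, nearly all of it CDH5, and that of 4 fibroblast markers 3.67 to 4.93 in siCCNL2 and 6.21 to 6.7 in siNC, with DCN at 0 throughout. Of the endothelial markers, PECAM1 (-1.41) and CDH5 (-1.28) were called lower and VWF (0.05) was not called. COL1A1, the only fibroblast marker tested, was called lower (-0.63). The part of these differences in the results below was not tested.

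The promoters of SETD7, KMT2C, KDM2A and KDM5B are shown because these genes had some of the largest differences, upward in the first 3 and downward in KDM5B. Those of SETD1A (log2 fold change 0.44) and KDM2B (0.42), which rose more than KMT2C (0.38), are not shown. Each sequence is from RefSeq on GRCh38.p14 and runs 5′ to 3′ on the gene's strand, from 250 bases before to 50 bases after the annotated start. Capitals mark GC boxes (GGGCGG, either strand), the motif bound by SP1-type factors.
SETD7 (chromosome 4, 139556170 to 139556469, minus strand): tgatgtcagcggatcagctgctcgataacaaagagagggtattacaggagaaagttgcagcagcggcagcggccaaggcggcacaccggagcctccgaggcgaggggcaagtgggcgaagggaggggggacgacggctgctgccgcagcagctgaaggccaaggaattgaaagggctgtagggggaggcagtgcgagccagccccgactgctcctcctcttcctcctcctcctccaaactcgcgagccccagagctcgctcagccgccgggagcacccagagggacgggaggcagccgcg
KMT2C (chromosome 7, 152435954 to 152436253, minus strand): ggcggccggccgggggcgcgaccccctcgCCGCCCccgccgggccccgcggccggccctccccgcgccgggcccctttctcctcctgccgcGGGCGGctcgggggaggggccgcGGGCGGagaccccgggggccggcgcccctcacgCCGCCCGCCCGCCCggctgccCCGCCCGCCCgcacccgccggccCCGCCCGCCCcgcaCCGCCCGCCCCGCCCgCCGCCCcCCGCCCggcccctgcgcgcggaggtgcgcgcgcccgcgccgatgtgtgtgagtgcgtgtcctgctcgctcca
KDM2A (chromosome 11, 67119013 to 67119312, plus strand): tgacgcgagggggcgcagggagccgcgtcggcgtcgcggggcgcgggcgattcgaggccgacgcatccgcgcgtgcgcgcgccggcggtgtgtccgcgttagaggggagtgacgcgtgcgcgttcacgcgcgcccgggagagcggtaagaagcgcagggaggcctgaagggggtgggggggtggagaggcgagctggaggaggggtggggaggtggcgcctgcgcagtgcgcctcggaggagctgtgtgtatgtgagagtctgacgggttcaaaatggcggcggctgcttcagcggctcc
KDM5B (chromosome 1, 202808372 to 202808671, minus strand): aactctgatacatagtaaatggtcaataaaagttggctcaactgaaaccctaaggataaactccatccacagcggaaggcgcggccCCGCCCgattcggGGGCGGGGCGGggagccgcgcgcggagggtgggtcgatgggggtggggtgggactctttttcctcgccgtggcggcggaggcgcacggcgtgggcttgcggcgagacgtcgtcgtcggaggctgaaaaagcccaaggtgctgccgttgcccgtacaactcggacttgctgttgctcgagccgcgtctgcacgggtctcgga
The GC box, counted with overlaps, occurred 15 times in the KMT2C window, 3 times in that of KDM5B and 0 times in those of SETD7 and KDM2A. A promoter was found for 49 of the 52 members, and 38 of these (77.6%) held at least 1 GC box, against 45.0% of all 35116 promoters of the same length. The median GC content was 66.3% over the members' promoters and 58.7% over all promoters. Other motifs searched on both strands were CCAAT (34.7% of member promoters and 34.6% of all), the E-box CACGTG (18.4% and 7.26%), the cAMP response element TGACGTCA (2.04% and 1.85%) and TGATGCAA, read by C/EBP-ATF dimers (0.0% and 0.866%). The windows of SETD7, KMT2C, KDM2A and KDM5B held none of these others. The set of all promoters was not limited to genes expressed here, unlike nearly all of the members, and the differences in share were not tested. Any further promoters of the same gene were dropped for the members but not in the set of all promoters. These are matches of letters and say nothing of binding.

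SETD7 stood apart in size, and the remaining differences among the enzymes were small and in both directions. Of 51 members tested, 12 were called higher in siCCNL2 than in siNC, 7 were called lower and 32 were not called by edgeR's quasi-likelihood test at an adjusted p under 0.05. This is 37.3% of the members called, against 33.6% of all 15346 genes tested, so the share was near the background. Among all genes 17.2% were called higher and 16.5% lower. The median log2 fold change was 0.01 over the members and 0.00 over all genes, and the median absolute value was 0.16 over the members and 0.19 over all genes. Only SETD7 among the members was called with a change of at least 1.5-fold, where 7.12% of all genes were, and it also passed 2-fold, as 2.34% of all genes did. Libraries of the groups did not overlap for 24 of 51 members, 14 with siCCNL2 above and 10 with siCCNL2 below, beside 43.9% of all genes (22.1% above and 21.8% below). Methyltransferases rose in 10 and fell in 4 of 34 tested genes, and demethylases rose in 2 and fell in 3 of 17. The difference between these kinds was not tested. The counts are those of the full set of libraries. With 1 library left out the higher count ran from 8 to 11, and the lower count was 3 without siCCNL2 replicate 2 and 4 without siNC replicate 1 or siNC replicate 2.

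**Figure D1:**
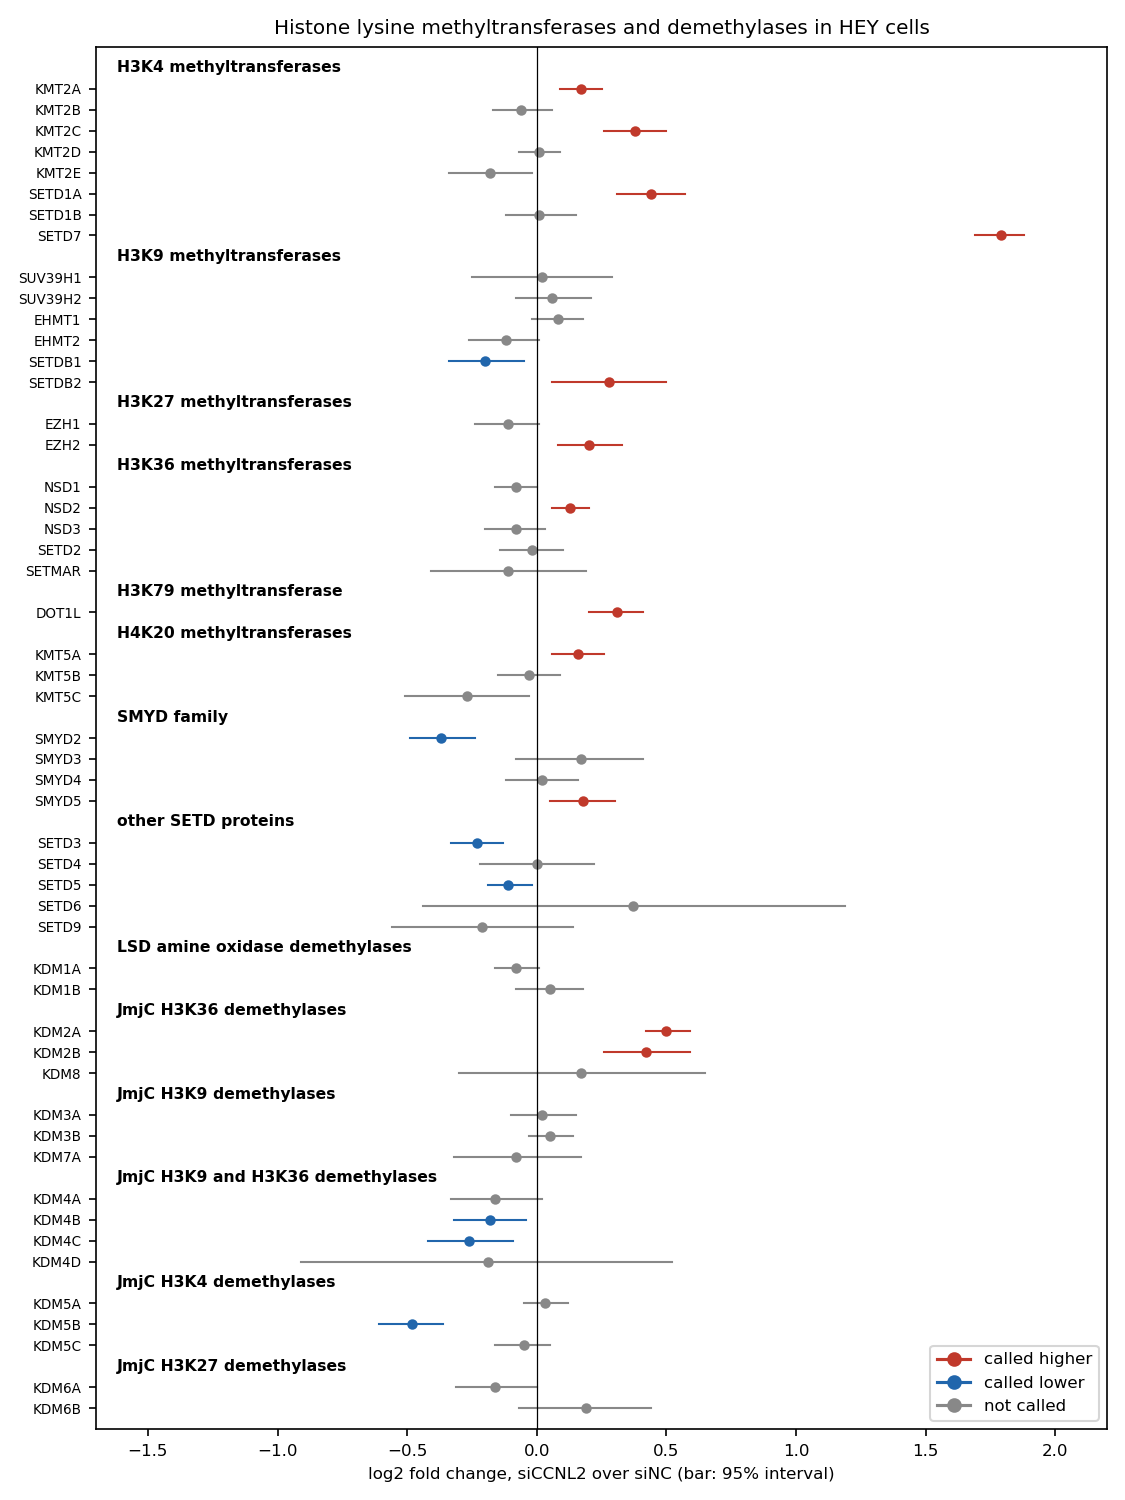
Log2 fold change of each of the 51 tested members (siCCNL2 over siNC, horizontal axis), grouped by the lysine or family they belong to; bars are 95% intervals of the fit and colours give the call. SETD7 lies at 1.79 and every other member between -0.48 and 0.50.

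In siNC the members' levels spread widely when set per gene length. NSD2 was the most abundant at a TPM-like score of 149.9 in siCCNL2 and 138.2 in siNC, followed in siNC by SETD3, SETD5 and KMT5A, the 4 members at or above 100. The score of 36 members lay from 10 to under 60 in siNC, SETD6 was lowest among those tested at 0.46 in siCCNL2 and 0.354 in siNC, and the median was 23.1 in siCCNL2 and 23.4 in siNC. SETD7 held the 5th place of the 52 in siCCNL2, against the 22nd in siNC. It made up 5.67% ± 0.22 of the members' summed score in siCCNL2, against 1.73% ± 0.046 in siNC (SD, n = 3 each). SMYD1, known as a methyltransferase of heart and skeletal muscle, had 1 read in siCCNL2 replicate 2 and 0 in the other 5 libraries and was not tested.

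**Figure D2:**
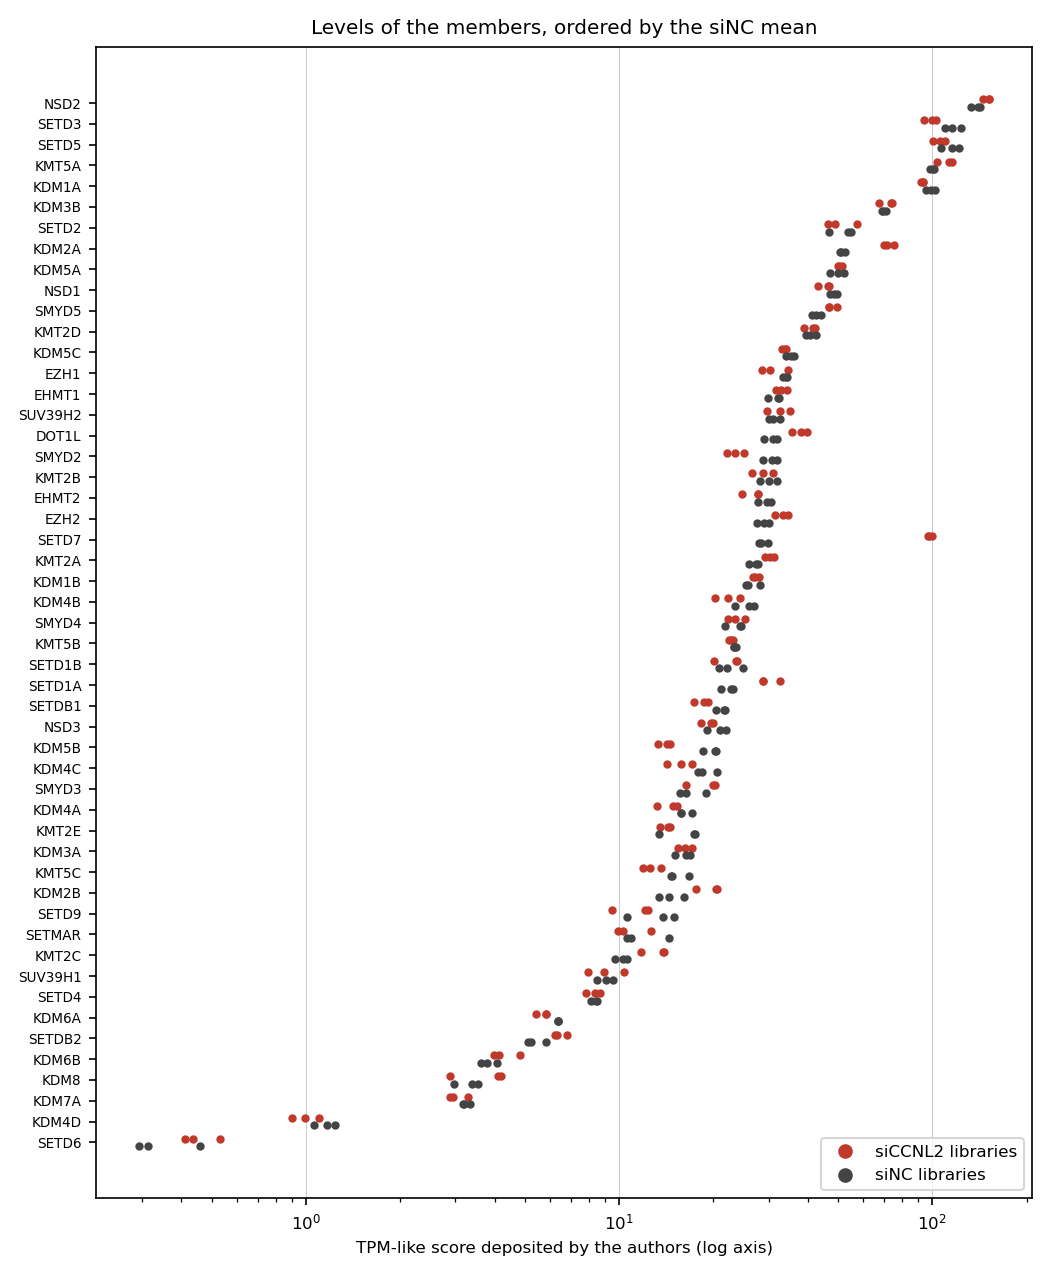
TPM-like score of the members in each library (log axis), ordered by the siNC mean; SMYD1, listed at 0 in all siNC libraries, is left out. Red points are siCCNL2 and grey points siNC libraries, which lie close together for most members and far apart for SETD7 (98.3 in siCCNL2 and 28.7 in siNC).

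SETD7 encodes a monomethyltransferase first described on H3K4 that also methylates many other proteins, among them transcription factors. Its level was 212.1, 223.7 and 222.0 CPM in the siCCNL2 libraries, against 62.5, 65.8 and 62.4 CPM in the siNC libraries. Every siCCNL2 library was more than 3 times as high as every siNC library. On the log2 scale the fold change was 1.79 (SE 0.044, 95% interval 1.69 to 1.88, adjusted p = 1.65e-19), the 4th smallest p of all genes and the 41st largest change. In the deposited table SETD7 (ENSG00000145391) spans 139495941 to 139606699 of chromosome 4 (GRCh38, minus strand), so the RefSeq start shown above falls inside this span. No exon of another GENCODE 29 gene overlaps its exons. Over 16 other settings its log2 fold change ran from 1.74 to 1.81 and the call was kept. With 3 libraries against 3, an exact permutation test (two-sided) cannot go below p = 0.1, and SETD7 reached that value, as did the other members whose libraries did not overlap.

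Of the other H3K4 methyltransferases, SETD1A, KMT2C and KMT2A rose and none fell. SETD1A, the catalytic subunit of a COMPASS complex that trimethylates promoters, had 55.6, 58.1 and 63.9 CPM in siCCNL2 libraries, against 44.0, 41.0 and 45.4 CPM in siNC libraries. The groups were separate, with a log2 fold change of 0.44 (SE 0.063, adjusted p = 4.56e-06). KMT2C, which monomethylates enhancers, had 75.3, 66.1 and 75.9 CPM in siCCNL2, against 56.2, 57.6 and 53.8 CPM in siNC (log2 fold change 0.38, SE 0.058, adjusted p = 1.56e-05). Copies of parts of KMT2C lie elsewhere in the genome, and the 5 KMT2C pseudogenes of the table, KMT2CP1 to KMT2CP5, had 0 counts in every library. Counts of 0 there do not show how reads that fit both KMT2C and a copy were handled. KMT2A, the MLL gene rearranged in leukaemia, averaged 164.3 ± 1.65 CPM in siCCNL2 and 146.0 ± 3.91 CPM in siNC (log2 fold change 0.17, SE 0.040, adjusted p = 0.00179). When limma was run on the log2 score its call was lost, with a pseudocount of 1 (adjusted p = 0.075) and of 0.1 (adjusted p = 0.0729), and 17.9% of its annotated exon bases also belong to AP001267.5 on the same strand.

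The paralogues of these genes did not pass the test. KMT2D, the partner of KMT2C in enhancer monomethylation and one of the most counted members, had 275.5, 269.3 and 284.2 CPM in siCCNL2, against 271.4, 284.3 and 267.3 CPM in siNC, with a log2 fold change of 0.01 and a 95% interval from -0.07 to 0.09. SETD1B, the paralogue of SETD1A, had a log2 fold change of 0.01 (-0.12 to 0.15), and KMT2B, that of KMT2A, -0.06 (-0.17 to 0.06). KMT2E, whose SET domain is thought to lack activity, was not called (log2 fold change -0.18, adjusted p = 0.0851). It had 44.1, 43.8 and 34.3 CPM in siNC, and without siNC replicate 3, the lowest of these, it was called lower (-0.29, adjusted p = 0.00245; range over the 16 other settings 0.00245 to 0.357). Differences between paralogues were not tested. The summed score of the 8 genes was 278.0 ± 9.4 in siCCNL2 and 197.9 ± 7.0 in siNC. Without SETD7 it was 179.7 ± 8.9 in siCCNL2 and 169.2 ± 6.0 in siNC, and the libraries overlapped.

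The H3K4 demethylases gave 1 call. KDM5B, a JmjC enzyme that removes di- and trimethylation from H3K4 and is often abundant in breast cancer, had 44.2, 45.3 and 41.0 CPM in siCCNL2 libraries, against 62.0, 62.6 and 57.6 CPM in siNC libraries. All siCCNL2 libraries were below all siNC libraries, with a log2 fold change of -0.48 (SE 0.059, adjusted p = 5.53e-07), and this was the largest fall among the members. KDM5B (ENSG00000117139) spans 202724495 to 202808487 of chromosome 1, minus strand. KDM5A, which binds the retinoblastoma protein, was the most abundant of the 3 at 177.5 ± 2.17 CPM in siCCNL2 and 173.3 ± 7.1 CPM in siNC, with a log2 fold change of 0.03 (95% interval -0.05 to 0.12). The X-linked KDM5C had -0.05 (-0.16 to 0.05, adjusted p = 0.447), with groups that did not overlap in CPM although the test did not call it. KDM1A, which encodes the amine oxidase LSD1 acting on mono- and dimethylated H3K4, had 173.4, 178.6 and 176.4 CPM in siCCNL2, against 184.7, 178.4 and 194.3 CPM in siNC. These ranges touched, and the log2 fold change was -0.08 (95% interval -0.16 to 0.01, adjusted p = 0.155). KDM1B, the other LSD enzyme, had 0.05 (-0.08 to 0.18).

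**Figure D3:**
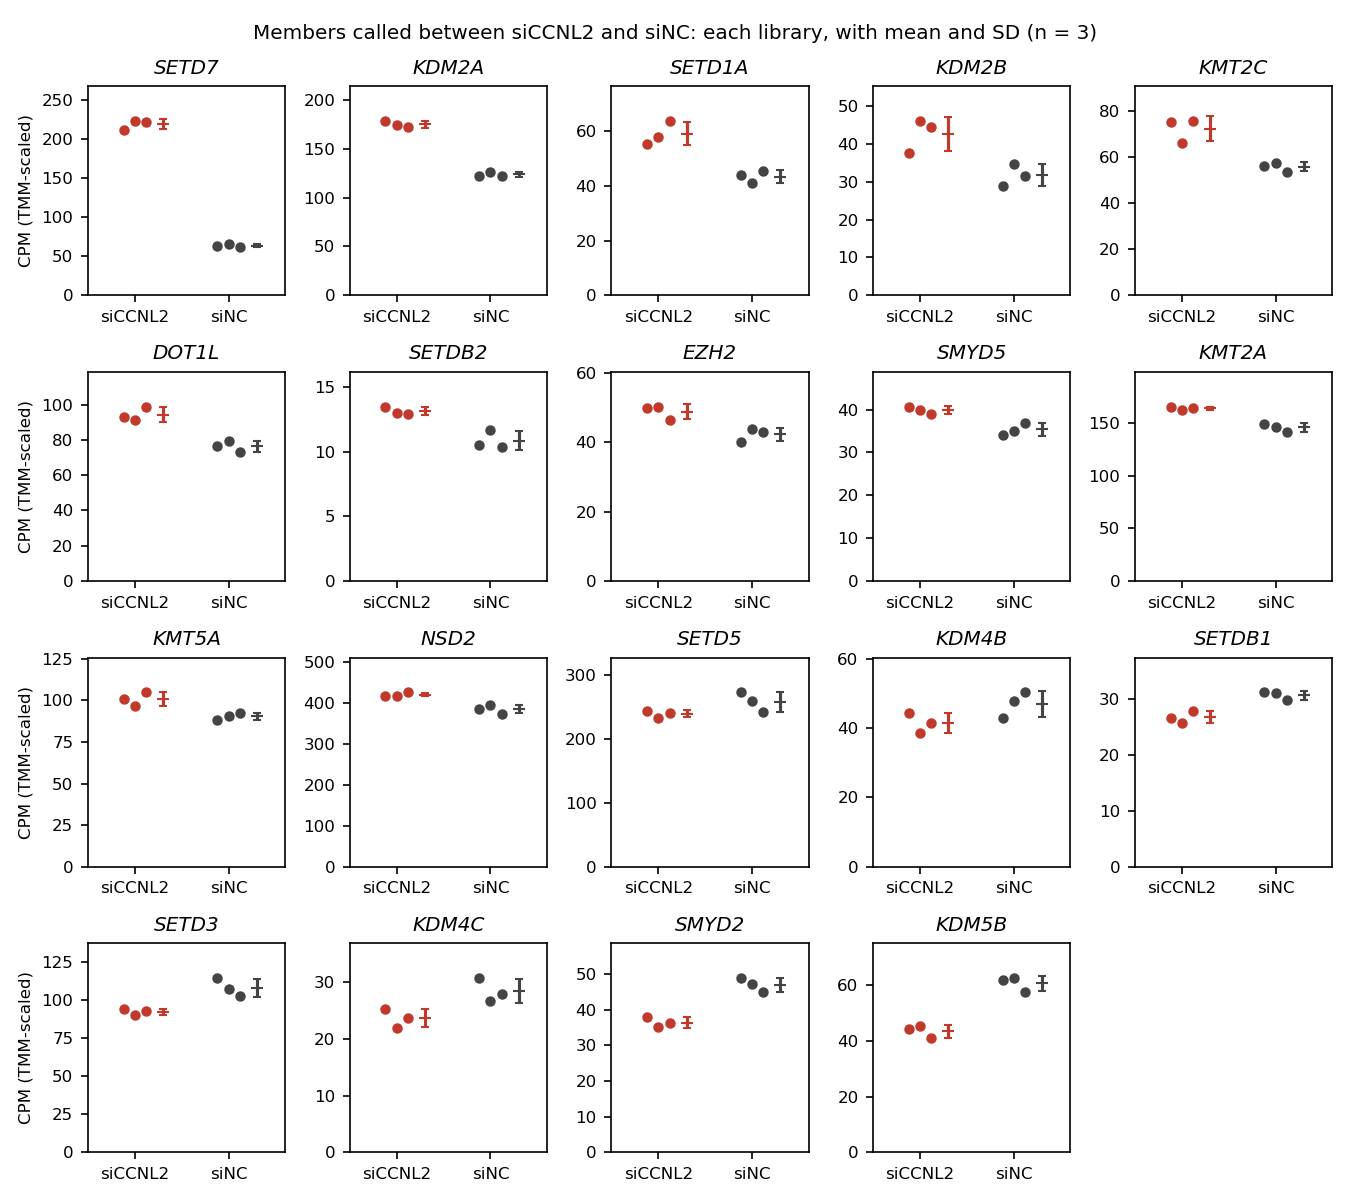
CPM of the 19 called members in each library (points), with the mean and SD of each group beside them (n = 3); vertical axes start at 0 and differ between panels. Members are ordered from SETD7 (log2 fold change 1.79) to KDM5B (-0.48), and only SETD5 and KDM4B have libraries of the groups that overlap.

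The JmjC demethylases of H3K36 rose in 2 of 3 genes. KDM2A, a CpG island-binding enzyme that removes H3K36 dimethylation, had 178.7, 174.1 and 172.5 CPM in siCCNL2 libraries, against 122.3, 126.3 and 122.6 CPM in siNC libraries. The libraries of each group were close to each other, and the log2 fold change of 0.50 (SE 0.040, adjusted p = 6.38e-10) was the second largest rise among the members. KDM2A (ENSG00000173120) spans 67119263 to 67258082 of chromosome 11, plus strand. Its paralogue KDM2B, which recruits a variant Polycomb complex to CpG islands, had 37.6, 46.1 and 44.4 CPM in siCCNL2, against 29.0, 34.7 and 31.5 CPM in siNC (log2 fold change 0.42, SE 0.078, adjusted p = 1.42e-04). It shares 439 exon bases with RNF34 on the opposite strand, a gene at 48.2 ± 0.749 CPM in siCCNL2 and 46.3 ± 1.41 CPM in siNC and not called. KDM8, a JmjC protein whose role as a histone demethylase is disputed, averaged 2.97 ± 0.635 CPM in siCCNL2 and 2.6 ± 0.234 CPM in siNC and was not called. The summed score of the 3 genes was 95.6 ± 0.59 in siCCNL2 and 69.4 ± 2.1 in siNC, without overlap.

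The writers of H3K36 methylation moved little. NSD2, the main enzyme of H3K36 dimethylation in several cancers, had 417.6, 418.2 and 425.9 CPM in siCCNL2 libraries, against 386.4, 394.0 and 373.9 CPM in siNC libraries. The groups were separate, with a log2 fold change of 0.13 (SE 0.034, adjusted p = 0.00501), a change of 9.31%. NSD1, its paralogue, averaged 193.9 ± 3.89 CPM in siCCNL2 and 205.1 ± 3.82 CPM in siNC (log2 fold change -0.08, adjusted p = 0.107), and it was called lower with upper-quartile factors (adjusted p = 0.0435; range over the other settings 0.0435 to 0.301). NSD3 had a log2 fold change of -0.08 (95% interval -0.20 to 0.03), but shares 545 exon bases with the opposite gene DDHD2, which was called higher (0.26). SETD2, the enzyme of H3K36 trimethylation that travels with RNA polymerase II, had 157.3, 133.2 and 136.2 CPM in siCCNL2, against 149.1, 152.4 and 131.2 CPM in siNC. These values overlapped widely, and the log2 fold change was -0.02 (-0.14 to 0.10). SETMAR, a fusion of a SET domain with a transposase, had -0.11 (-0.41 to 0.19).

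In the KDM4 family of H3K9 demethylases, some of which also act on H3K36, 2 of 4 fell and none rose. KDM4C had 25.2, 22.0 and 23.7 CPM in siCCNL2 libraries, against 30.7, 26.7 and 27.9 CPM in siNC libraries, with no overlap (log2 fold change -0.26, SE 0.080, adjusted p = 0.0138). That call was lost without siCCNL2 replicate 2 (adjusted p = 0.0715), without siNC replicate 1 (0.103) and when limma was run on the log2 score with a pseudocount of 1 (0.067) or 0.1 (0.0637). KDM4B, a target of hypoxia and of oestrogen receptor signalling in other cells, averaged 41.5 ± 2.9 CPM in siCCNL2 and 47.1 ± 3.69 CPM in siNC, with overlapping libraries (log2 fold change -0.18, SE 0.068, adjusted p = 0.0449). The call was lost in 8 of 16 other settings, among them without siCCNL2 replicate 2 (0.198), siCCNL2 replicate 3 (0.125), siNC replicate 2 (0.129) or siNC replicate 3 (0.215) and by the DESeq2 Wald test (0.0882). KDM4A had a log2 fold change of -0.16 (95% interval -0.33 to 0.02) and shares 40.2% of its exon bases with AL451062.3 on the same strand, so its count is uncertain. KDM4D averaged 0.964 ± 0.0742 CPM in siCCNL2 and 1.11 ± 0.0874 CPM in siNC and was not called. The summed score of the 4 genes was 53.4 ± 2.9 in siCCNL2 and 61.8 ± 0.71 in siNC, without overlap.

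Of the H3K9 methyltransferases, 1 rose and 1 fell, and both calls were fragile. SETDB1, an H3K9-trimethylating enzyme recruited by KRAB zinc finger proteins to silence retroelements, had 26.5, 25.7 and 27.8 CPM in siCCNL2, against 31.1, 31.0 and 29.7 CPM in siNC. The groups were separate (log2 fold change -0.20, SE 0.071, adjusted p = 0.0358), but the call was lost in 8 of 16 other settings. These include leaving out siCCNL2 replicate 1 (adjusted p = 0.0885), siCCNL2 replicate 2 (0.115), siNC replicate 1 (0.104) or siNC replicate 2 (0.0904). SETDB1 shares 13.4% of its exon bases with CERS2 on the opposite strand, a gene at 114.9 ± 2.74 CPM in siCCNL2 and 110.9 ± 7.42 CPM in siNC that was not called. SETDB2, its less studied paralogue, had 13.5, 13.0 and 12.9 CPM in siCCNL2, against 10.5, 11.7 and 10.4 CPM in siNC (log2 fold change 0.28, SE 0.11, adjusted p = 0.0469). Its call was lost in 12 of 16 other settings, including 5 of the 6 with 1 library left out (adjusted p 0.0717 to 0.131; kept without siNC replicate 2). SUV39H1, SUV39H2, EHMT1 and EHMT2, which methylate H3K9 in heterochromatin and at silent genes, were not called, with log2 fold changes from -0.12 (EHMT2) to 0.08 (EHMT1).

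The H3K9 demethylases KDM3A, KDM3B and KDM7A were not called either. KDM3B, the most abundant of them, had 158.8, 153.2 and 163.4 CPM in siCCNL2, against 155.0, 150.4 and 153.6 CPM in siNC (log2 fold change 0.05, 95% interval -0.03 to 0.14). Its groups overlapped. KDM3A, a hypoxia-induced enzyme in many cells, had 0.02 (-0.10 to 0.15), and KDM7A -0.08 (-0.32 to 0.17).

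EZH2 and EZH1, the alternative catalytic subunits of Polycomb repressive complex 2 that methylate H3K27, had fold changes of opposite sign. EZH2, usually tied to proliferation, had 49.8, 50.3 and 46.3 CPM in siCCNL2 libraries, against 40.2, 43.8 and 43.0 CPM in siNC libraries. The libraries were separate and EZH2 was called higher (log2 fold change 0.20, SE 0.061, adjusted p = 0.0111), though not without siNC replicate 1 (adjusted p = 0.068; range over the other settings 0.00987 to 0.068). EZH1 averaged 47.2 ± 3.78 CPM in siCCNL2 and 51.2 ± 1.02 CPM in siNC (log2 fold change -0.11, adjusted p = 0.171). It was called lower without siCCNL2 replicate 1 (adjusted p = 0.0362; range 0.0362 to 0.491), the library with 51.5 CPM where the other siCCNL2 libraries had 44.4 and 45.8. The H3K27 demethylases were not called. KDM6A, also named UTX, had 22.6, 22.0 and 23.0 CPM in siCCNL2, against 25.0, 25.0 and 25.5 CPM in siNC. Its groups did not overlap, and the test gave a log2 fold change of -0.16 (SE 0.076, adjusted p = 0.116). KDM6B, which is induced by inflammatory signals in macrophages, had 0.19 (adjusted p = 0.276).

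DOT1L, the only member that methylates H3K79, had 93.2, 91.3 and 99.0 CPM in siCCNL2 libraries, against 76.8, 79.2 and 73.2 CPM in siNC libraries. All siCCNL2 libraries were above all siNC libraries, with a log2 fold change of 0.31 (SE 0.050, adjusted p = 3.33e-05). It shares 529 exon bases, 4.69% of its own, with PLEKHJ1 on the opposite strand, which was itself called higher (36.5 ± 2.47 CPM in siCCNL2 and 27.8 ± 2.46 CPM in siNC). Reads of the shared bases cannot be assigned to either gene without strand.

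KMT5A, which monomethylates H4K20 and is needed in mitosis and replication, had 100.7, 96.9 and 104.8 CPM in siCCNL2, against 88.1, 90.6 and 92.3 CPM in siNC. The groups were separate, with a log2 fold change of 0.16 (SE 0.047, adjusted p = 0.0109). The call was lost without siCCNL2 replicate 3 (adjusted p = 0.077) and without siNC replicate 1 (0.0554). Its pseudogene KMT5AP1 had 28, 25 and 35 counts in siCCNL2 and 15, 20 and 24 counts in siNC, and KMT5AP2 had 48, 38 and 39 counts in siCCNL2 and 36, 48 and 38 counts in siNC. These may share reads with it. KMT5B and KMT5C, which extend the mark to di- and trimethylation, had log2 fold changes of -0.03 (-0.15 to 0.09) and -0.27 (-0.51 to -0.03, adjusted p = 0.0778), neither called.

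In the SMYD family, whose SET domain is split by a MYND zinc finger, 1 gene fell and 1 rose. SMYD2, which methylates H3K36 and nonhistone proteins, had 37.9, 35.0 and 36.1 CPM in siCCNL2 libraries, against 48.8, 47.1 and 44.9 CPM in siNC libraries. This fall was clear of the spread (log2 fold change -0.37, SE 0.062, adjusted p = 4.85e-05) and was kept in all 16 other settings. SMYD5 had 40.7, 40.0 and 39.0 CPM in siCCNL2, against 34.1, 35.1 and 36.9 CPM in siNC (log2 fold change 0.18, SE 0.063, adjusted p = 0.0333). Its call was lost in 8 of 16 other settings, including without siCCNL2 replicate 1 (0.0915), siCCNL2 replicate 2 (0.0629), siCCNL2 replicate 3 (0.0519), siNC replicate 1 (0.124) or siNC replicate 2 (0.0852). SMYD3 and SMYD4 were not called, with log2 fold changes of 0.17 (95% interval -0.08 to 0.41) and 0.02 (-0.12 to 0.16).

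Of the remaining SETD proteins, 2 of 5 fell and none rose. SETD3, which methylates a histidine of actin rather than a histone in the best described case, had 94.1, 90.1 and 92.9 CPM in siCCNL2 libraries, against 114.4, 107.0 and 102.9 CPM in siNC libraries. The groups did not overlap (log2 fold change -0.23, SE 0.048, adjusted p = 6.99e-04), and the call was kept in all 16 other settings. SETD5, whose enzymatic activity is disputed, averaged 239.4 ± 5.42 CPM in siCCNL2 and 258.1 ± 15.4 CPM in siNC, with overlapping libraries (log2 fold change -0.11, SE 0.042, adjusted p = 0.0479). That call was lost in 7 other settings, including without siCCNL2 replicate 2 (0.157), siCCNL2 replicate 3 (0.127), siNC replicate 1 (0.32) or siNC replicate 2 (0.127). SETD4, SETD6 and SETD9 were not called, and SETD6, at under 1 CPM, had an interval from -0.44 to 1.19. SETD6 also shares 21.4% of its exon bases with the far more abundant CNOT1 on the opposite strand.

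**Figure D4:**
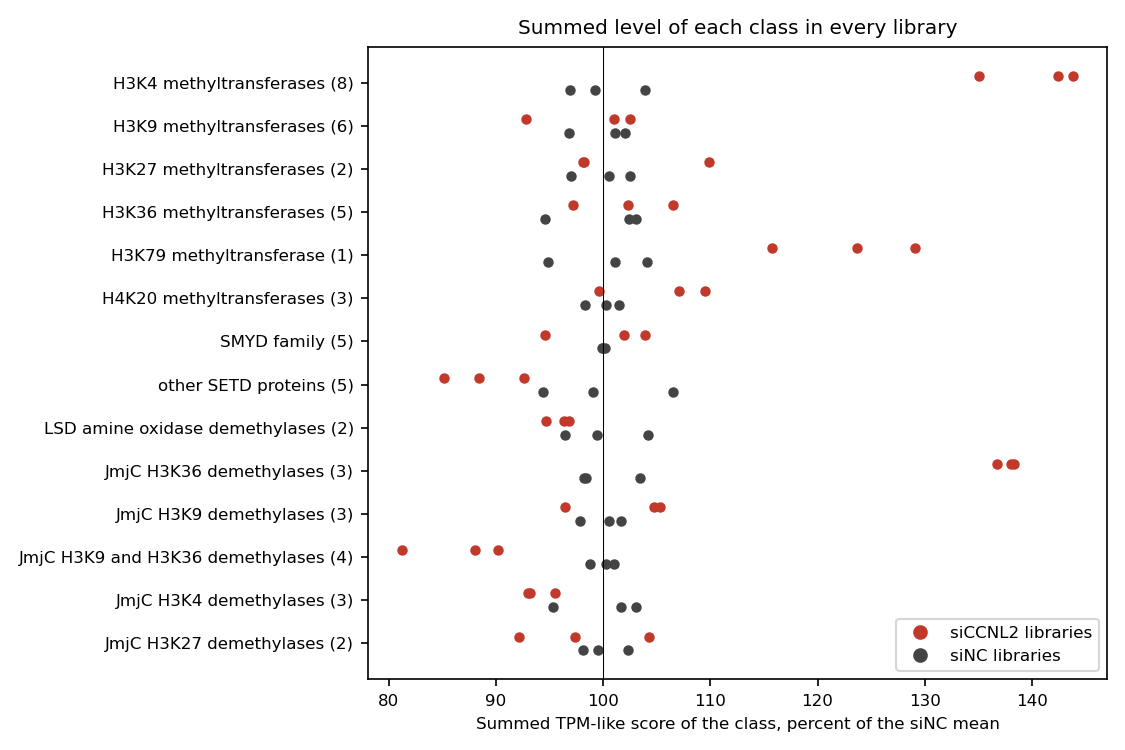
Summed TPM-like score of each class in every library, as a percent of the siNC mean (number of members in brackets); red points are siCCNL2 and grey points siNC libraries. The H3K4 methyltransferases (ratio 1.40, of which SETD7 is the larger part), the H3K36 demethylases (1.38) and DOT1L (1.23) lie to the right without overlap, and the other SETD proteins (0.887) and the KDM4 family (0.865) to the left.

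Calls and intervals can be read together over the whole set. Of 19 called members, 10 kept their call and direction in all 16 other settings: SETD7, KDM2A, SETD1A, KDM2B, KMT2C, DOT1L and NSD2 higher, and KDM5B, SMYD2 and SETD3 lower. The other 9 lost it in at least 1. For 22 of the 32 members not called, the 95% interval lay within 1.25-fold either way, and for 10 it reached further. The summed score of all 52 members was 1735.8 ± 63 in siCCNL2 and 1656.5 ± 35 in siNC, and without SETD7 1637.5 ± 63 in siCCNL2 and 1627.8 ± 34 in siNC, with overlapping libraries in both cases. Members lay on 19 chromosomes, 5 of them on chromosome 12. In the pathway column of the deposited table, 27 of the 35 methyltransferases and 0 of the 17 demethylases were assigned to lysine degradation, together 27 of the 62 names in that pathway.

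Genes that work with these enzymes were read from 10 lists of partners, related enzymes and cofactor supply, 131 genes of which 122 were tested. Together 34 rose and 22 fell, 45.9% called beside 33.6% of all genes, with a median log2 fold change of 0.04. Their median absolute log2 fold change was 0.15, against 0.19 over all genes. The lists were chosen with earlier results of these data known, and the difference in share was not tested. COMPASS subunits, both core and accessory ones of these H3K4 methyltransferase complexes, rose in 4 and fell in 3 of 15 (median 0.10). BOD1 (log2 fold change 0.43, 58.6 ± 1.03 CPM in siCCNL2 and 43.5 ± 1.47 CPM in siNC) and the core subunit RBBP5 (0.29) rose, and the core subunit ASH2L fell (-0.20). BOD1L1 also fell (-0.23), but not without siCCNL2 replicate 3 (adjusted p = 0.0962), siNC replicate 1 (0.127) or siNC replicate 2 (0.0625). Its call was also lost by the DESeq2 Wald test (0.162). The same held for limma on the log2 score (0.143 with a pseudocount of 1 and 0.142 with 0.1). PRC2 subunits rose in 4 and fell in 2 of 11 (median 0.12). The histone-binding subunit RBBP4 (0.38, 128.4 ± 0.556 CPM in siCCNL2 and 98.8 ± 2.58 CPM in siNC) and the accessory subunit AEBP2 (0.30) rose, and the accessory subunits MTF2 (-0.27) and PHF19 (-0.26) fell.

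LSD1-CoREST partners rose in 5 and fell in 2 of 12 (median 0.14). HMG20B (log2 fold change 0.38) and the deacetylase HDAC1 (0.33, 158.6 ± 3.09 CPM in siCCNL2 and 126.1 ± 5.13 CPM in siNC) rose, and the scaffold RCOR1 (-0.25) and ZMYM2 (-0.28) fell. Partners and readers of H3K9 methylation rose in 6 and fell in 3 of 13 (median 0.05). TASOR, of the HUSH silencing complex, rose by 0.61 on the log2 scale (132.5 ± 5.31 CPM in siCCNL2 and 87.0 ± 4.24 CPM in siNC), and ATF7IP, the cofactor that stabilises SETDB1, rose by 0.41. LRWD1 (-0.42) and the heterochromatin protein CBX3 (-0.20) fell. Elongation partners of DOT1L rose in 5 and fell in 1 of 10 (median 0.08), and AFF3 (0.47) and MLLT3 (0.30, 21.1 ± 1.87 CPM in siCCNL2 and 17.1 ± 1.59 CPM in siNC), a reader of acetylated histones, were among those that rose. MLLT3 lost its call without siCCNL2 replicate 3 (adjusted p = 0.108), without siNC replicate 2 (0.0994) and on the log2 score (0.128 with a pseudocount of 1 and 0.124 with 0.1). EAF1 fell (-0.21), but not without siCCNL2 replicate 1 (0.138), siCCNL2 replicate 3 (0.0908), siNC replicate 1 (0.0761) or siNC replicate 3 (0.0822). The DESeq2 Wald test did not call EAF1 either (0.0711). Leaving out siNC replicate 2 took the higher count of this list to 3.

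Other lysine methyltransferases outside the naming pattern rose in 0 and fell in 3 of 15 by edgeR (median 0.06, 5 at an unadjusted p under 0.05), led by VCPKMT (log2 fold change -0.54, 7.6 ± 0.6 CPM in siCCNL2 and 11.0 ± 1.56 CPM in siNC) and PRDM10 (-0.26, lost without siCCNL2 replicate 2 at an adjusted p of 0.0515). PRDM10 also lost its call on the log2 score (0.0656 with a pseudocount of 1 and 0.0606 with 0.1). Without siCCNL2 replicate 2 this list held 1 lower call. Other JmjC proteins rose in 2 and fell in 3 of 11 (median -0.03). RIOX1 (0.35, lost without siCCNL2 replicate 3 at 0.0863 and siNC replicate 1 at 0.054) and PHF2 (0.19, lost without siCCNL2 replicate 2 at 0.0673) rose. TYW5 (-0.27) and the asparaginyl hydroxylase HIF1AN (-0.22) fell, TYW5 losing its call without siCCNL2 replicate 3 (0.0986), siNC replicate 2 (0.0852) or siNC replicate 3 (0.0543). TYW5 also lost it without a count filter (0.0565) and by the DESeq2 Wald test (0.073). On the log2 score its adjusted p was 0.0947 with a pseudocount of 1 and 0.0916 with 0.1. The lower count of these JmjC proteins was 1 without siCCNL2 replicate 3 or siNC replicate 2. Arginine methyltransferases and their cofactors rose in 3 and fell in 1 of 11 (median 0.08). PRMT6, which places asymmetric dimethylarginine on histone H3, had 55.9 ± 5.09 CPM in siCCNL2 and 28.0 ± 1.75 CPM in siNC (log2 fold change 1.00, adjusted p = 6.6e-11), the largest change in the 10 lists. RIOK1 rose (0.27) and PRMT7 fell (-0.22). Without siNC replicate 2 the higher count of this list was 1. RIOK1 was lost without siCCNL2 replicate 3 (0.157), siNC replicate 2 (0.0551) or siNC replicate 3 (0.165), and PRMT7 without siCCNL2 replicate 3 (0.132), siNC replicate 1 (0.0544) or siNC replicate 2 (0.0889). Both were also lost on the log2 score. With a pseudocount of 1 the adjusted p was 0.129 for RIOK1 and 0.0626 for PRMT7, and with 0.1 it was 0.128 and 0.0595.

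Of the cofactor enzymes, those of 2-oxoglutarate, succinate and fumarate had calls in both directions, and those of S-adenosylmethionine supply had only higher calls. In the former 7 of 14 tested genes were called and in the latter 2 of 10, beside 33.6% of all genes. These differences in share were not tested. Genes of S-adenosylmethionine supply rose in 2 and fell in 0 of 10 (median -0.01), AHCY, which removes the inhibitory product S-adenosylhomocysteine (log2 fold change 0.18), and NNMT, which consumes methyl groups on nicotinamide (0.35). None fell by edgeR, and 3 of the 10 had an unadjusted p under 0.05. Enzymes of 2-oxoglutarate, succinate and fumarate, the cosubstrate and inhibitors of JmjC enzymes, rose in 3 and fell in 4 of 14 (median -0.02). SDHB, a succinate dehydrogenase subunit (0.36), and D2HGDH (0.24) rose, and the isocitrate dehydrogenase genes IDH1 (-0.29) and IDH3B (-0.28) fell. D2HGDH lost its call without siCCNL2 replicate 1 (adjusted p = 0.0815), siNC replicate 1 (0.0557) or siNC replicate 3 (0.0766). It was also lost without a count filter (0.0625) and by the DESeq2 Wald test (0.0722). On the log2 score its adjusted p was 0.0758 with a pseudocount of 1 and 0.0696 with 0.1. Calls on partners and cofactor enzymes have p-values adjusted over all 15346 genes.

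**Figure D5:**
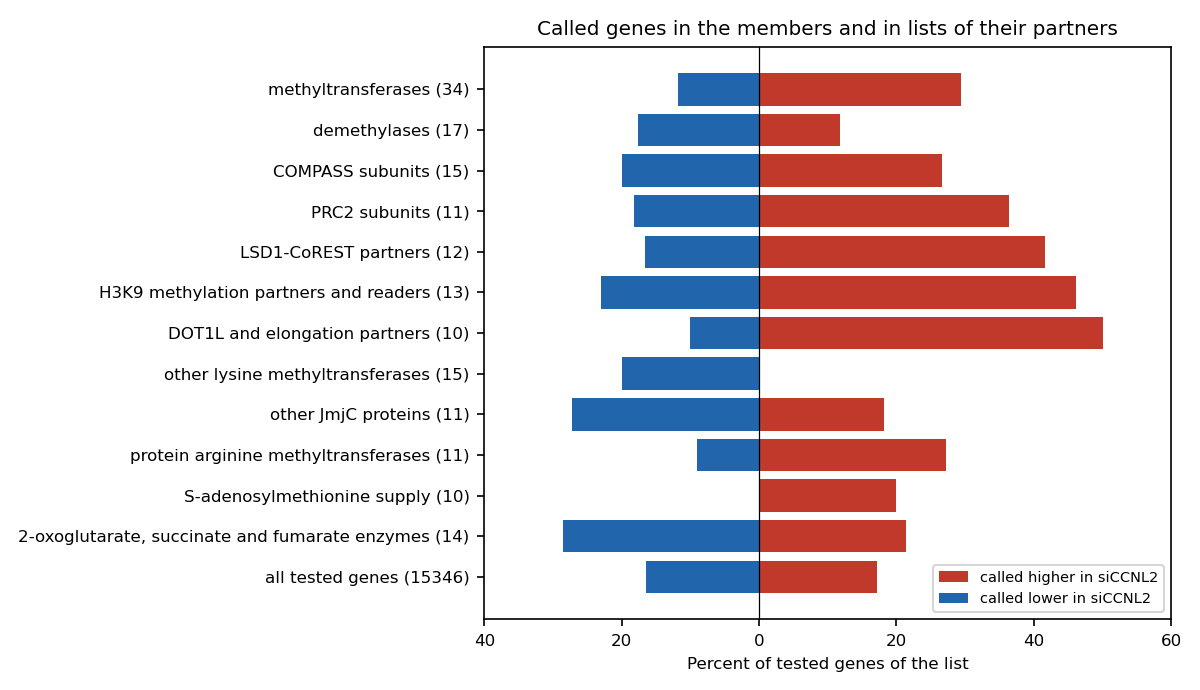
Percent of tested genes called higher (red, to the right) and lower (blue, to the left) in siCCNL2 for the methyltransferases, the demethylases, 10 lists of related genes and all tested genes, with the number tested in brackets. All tested genes stand at 17.2% higher and 16.5% lower.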

How the data were processed

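RNA-seq read counts per gene, deposited by the authors as whole numbers without normalization, were used for 3 siCCNL2 and 3 siNC libraries of HEY cells, grouped by the genotype in the labels. HISAT2, HTSeq 2.0.1, fastp 0.23.0 and the build GRCh38 are named, without role or order, per the submitters' processing notes. Neither the annotation release nor the library kit nor the strand setting is given in the sources used here. How reads in exon bases shared by overlapping genes were assigned is therefore not known. The table has 62710 rows for 60835 names, rows of 1 name hold the same values, and each name was used once. A second table deposited by the authors holds a TPM-like score, which sums to 1000000 over distinct names in each library and was used to set levels per gene length and as an alternative scale.

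Genes were kept by filterByExpr (15346 genes, at least 99.76% of counts in each library) and tested with edgeR 4.0.16 in R 4.3.3 (TMM, glmQLFit and glmQLFTest, no covariates, Benjamini-Hochberg over all tested genes, called under 0.05). Fold changes are siCCNL2 over siNC, and the SE is the log2 fold change over the square root of F. The script was tested on simulated data. Alternatives were other scalings and filters, DESeq2 1.42.0, limma 3.58.1, the score on a log2 scale with a pseudocount of 1 or 0.1, a threshold of 0.01, a replicate block and leaving out each library. Exon overlaps are from GENCODE 29 on GRCh38, in which all 52 members were found. That release may differ from the annotation used for counting, and some overlapping genes have no entry under the same name in the deposited counts.

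The members, their classes and the 10 related lists were chosen with earlier results of these data known. Values in every library are given for SETD7 and, in each class, for the called member with the smallest p per direction (the most abundant one where none was called), and for some others chosen after their values were seen. From each related list, up to 2 called genes per direction with at least 5 CPM in the higher group are named by size. Same-numbered libraries were not treated as pairs.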

Additional observations from a re-analysis of the deposited data

How the results depend on the processing

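With the replicate number of the labels as a block, 11 members were called higher and 7 lower, against 12 and 7 without it, and SETDB2 was the only member whose call changed (adjusted p = 0.0503). Same-numbered libraries deviated together by correlations of 0.0432, 0.023 and 0.0257, all under 0.1, though each siCCNL2 library correlated best with its own number. The 7 members called lower became 4 by the DESeq2 Wald test, 3 on the log2 score with either pseudocount, 3 at an adjusted p under 0.01, and 3 to 7 with 1 library left out. The members' median log2 fold change of 0.011 ran from -0.021 to 0.028 with 1 library left out and was -0.008 with upper-quartile factors, a change of sign. Over 815 results of a member under an alternative, 760 stayed on their side of the threshold, 52 lost a call and 3 gained one, and 0 called values changed sign. SETD6 was not tested under the 1 CPM filter. The 34 named partner genes were put through the same 16 settings as the members, a choice made after the data had been seen, and 24 kept their call in all. Over all genes, 2634 higher and 2525 lower calls became 2368 and 2783 with upper-quartile factors. Depth limits the members near or under 1 CPM: the 95% interval ran from -0.44 to 1.19 for SETD6 and from -0.91 to 0.52 for KDM4D.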
